A study of Mus musculus with 6 samples.

Results

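Cap1 and 9 genes of the actin filament turnover machinery were followed in cells labelled as peritoneal macrophages of the mouse, primary phagocytes of the abdominal cavity. They were the 10 rows of the deposited table, out of 27240 genes, whose symbol was Cap1, Cfl1, Pfn1, Wdr1, Twf1, Twf2, Coro1a, Gsn, Actb or Actg1. Poly(A) RNA was sequenced from 3 knockout (KO) and 3 wild-type (WT) samples, all given oxLDL, low-density lipoprotein in its oxidised form, which macrophages engulf; untreated cells were not analysed here. The series title names the kinase DCLK1, and the labels give the knockout group only as KO. Neither the allele nor any Cre driver, nor the age or sex of the mice, is stated. Nor do the labels say that replicates came from separate mice or cultures, and each p-value here thus speaks of sample-to-sample spread alone, part or all of which may be technical. Cap1 was taken up because its level differed between KO and WT in these libraries, and the other 9 for their role beside it, with the results known. The KO and WT values of the 10 genes are therefore a description and support no conclusion on their own.

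Actin filaments grow at one end and come apart at the other, and the freed subunits are recycled for new growth. Cofilin (Cfl1) severs and unwinds ageing filaments, and WDR1 and coronins work on the same filaments. CAP1, cyclase-associated protein 1, strips cofilin-bound subunits from filament ends and exchanges their spent nucleotide for ATP. Profilin (Pfn1) then delivers the recharged subunits to growing ends, twinfilins (Twf1 and Twf2) bind subunits and filament ends, and gelsolin (Gsn) cuts and caps filaments when calcium rises. Macrophages rely on this cycle to crawl and to engulf particles.

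Library totals lay between 72559141 and 74172804 counts in KO and between 68053008 and 79090732 counts in WT. Dclk1, the gene named in the title, had 415, 431 and 377 counts in KO libraries, against 494, 498 and 584 counts in WT libraries, with each KO value below each WT value but no call (edgeR adjusted p = 0.332), and gene-level counts cannot tell which exons the reads came from. On the first principal component of log2 CPM, KO libraries lay at -37.3 to -10.9 and WT libraries at 5.94, 16.2 and, for the outlying WT replicate 1, 60.7. The labels give the cells as peritoneal macrophages, although their extraction protocol also speaks of adipose RNA, which was not resolved here. Macrophage markers were abundant in all libraries. Without the lysozyme gene Lyz2, which was lower in KO, the other 11 summed to 5074.6 to 5192.6 CPM in KO and 4958.6 to 5207.7 CPM in WT libraries, where CPM are counts scaled to a common normalised library size. Summed markers of fibroblasts and mesothelium lay lower in KO libraries (77.4 to 89.1 CPM, against 101.6 to 108.6 CPM in WT), as did those of T and NK cells (11.6 to 12.4 against 13.8 to 17.1), neutrophils (20.8 to 22.9 against 23.5 to 26.7), mast cells (3.02 to 4.25 against 4.98 to 6.10) and dendritic cells (11.6 to 14.2 against 14.3 to 16.9). Those of B cells (5.11 to 6.40 against 4.32 to 5.06) and of platelets and erythroid cells (52.1 to 53.3 against 43.0 to 45.0) lay higher in KO libraries. In each of these 7 lists the groups did not overlap in the sum, where 17.6% of single genes tested did not overlap. No marker of the 7 lists passed edgeR's test over all genes, which 0.0677% of genes passed. DESeq2, a second test, called Pdgfra (adjusted p = 0.000372), Dcn (0.00103), Krt8 (0.0223) and Cd3g (0.0323) lower in KO. It called Pf4 (0.00559) higher, and 3.57% of all genes with a DESeq2 adjusted p. These markers were named after their values were seen. The neutrophil marker Ly6g and the dendritic cell marker Siglech were at 0 in all libraries. Single genes carried some of these sums. S100a8 made up nearly all of the neutrophil sum, at 22.6, 20.3 and 21.8 CPM in KO libraries and 26.3, 23.5 and 24.1 CPM in WT libraries, while S100a9 ran the other way, at 0.109 to 0.205 CPM in KO and 0 to 0.0588 CPM in WT libraries. Likewise Pf4 made up nearly all of the platelet and erythroid sum and Ccr7 most of the dendritic cell sum. Ighm made up most of the B cell sum but overlapped between the groups. It had 3.38, 3.87 and 3.84 CPM in KO libraries, against 4.12, 3.29 and 3.83 CPM in WT libraries. The other B cell markers were barely detected and had higher means in KO. The part of other cells in the values that follow was not tested. In a bulk sample, fewer cells of a type and less RNA per cell cannot be told apart.

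Cap1 (ENSMUSG00000028656, chromosome 4, 122859047 to 122886044, minus strand, coordinates as deposited; the 3′ end is that of the GRCm38 annotation used here and the 5′ end differs slightly) was the member with a large difference. It had 32616, 32770 and 32330 counts in KO libraries, against 52247, 58416 and 59438 counts in WT libraries. Scaled for depth, these were 436, 448 and 442 CPM in KO and 768, 786 and 756 CPM in WT. All 3 KO values lay far below all 3 WT values, and the libraries of a group lay within a few percent of each other (coefficient of variation 1.37% in KO and 1.94% in WT). The KO mean was 442 ± 6.07 CPM and the WT mean 770 ± 14.9 CPM (SD, n = 3 each), so KO stood at 57.4% of WT. The fitted log2 fold change was -0.80 (SE 0.0296, 95% interval -0.87 to -0.73), with an edgeR adjusted p of 6.35e-05, the value for which the gene was taken up. The deposited FPKM, which are scaled for gene length as well, were 113, 116 and 114 in KO and 197, 200 and 194 in WT.

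Of the 10 genes, 1 passed the edgeR test at an adjusted p under 0.05, lower in KO, where 0.0677% of the 16239 genes tested passed in either direction, 0.0431% lower and 0.0246% higher in KO. Since Cap1 was chosen by that same comparison, nothing is read from this count. All 10 genes passed the filter on low counts. The 95% intervals of the other 9 genes, the lowest of which began at -0.32, did not reach that of Cap1. Among the 1879 genes with a mean of at least 100 CPM, 13 had a fitted change as large as that of Cap1 or larger, itself included, of which 10 were lower in KO.

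**Figure D1:**
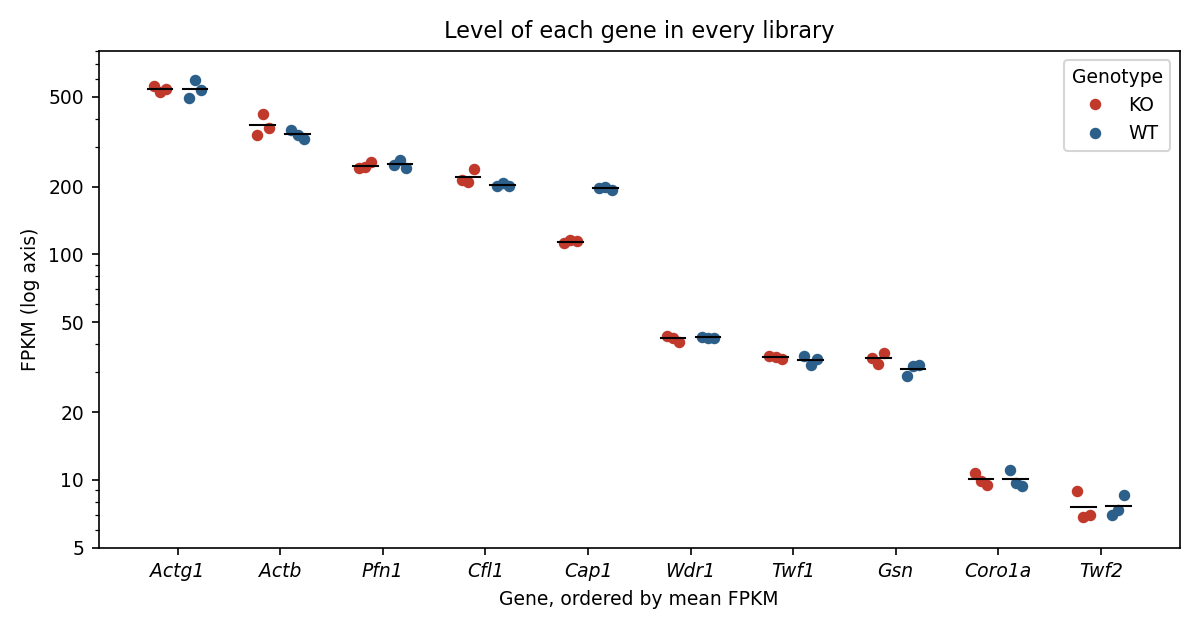
FPKM of the 10 genes in every library, on a log axis, with KO left of WT for each gene; points are libraries and bars are means of 3. Cap1 lies at 113 to 116 FPKM in KO and 194 to 200 FPKM in WT, while the other genes keep nearly the same level in both genotypes.

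The 250 bases before and 50 bases after the annotated start of Cap1 are shown beside those of Cfl1, its main working partner, and of Actg1, the most abundant of the 10 genes, because the 3 genes differ in the promoter elements that these windows hold. Sequences are RefSeq's, build GRCm38.p6, written 5′ to 3′ along the gene, and capitals mark matches on either strand to a GC box (GGGCGG), a CArG box, or a box of the letters CCAAT.
Cap1 promoter, chr4:122886027-122886326, minus strand: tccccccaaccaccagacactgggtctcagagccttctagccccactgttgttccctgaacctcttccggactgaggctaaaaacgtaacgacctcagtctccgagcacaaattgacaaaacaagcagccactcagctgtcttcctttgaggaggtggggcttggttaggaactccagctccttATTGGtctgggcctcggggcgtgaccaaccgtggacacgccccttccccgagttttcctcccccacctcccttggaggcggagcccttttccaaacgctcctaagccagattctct
Cfl1 promoter, chr19:5490205-5490504, plus strand: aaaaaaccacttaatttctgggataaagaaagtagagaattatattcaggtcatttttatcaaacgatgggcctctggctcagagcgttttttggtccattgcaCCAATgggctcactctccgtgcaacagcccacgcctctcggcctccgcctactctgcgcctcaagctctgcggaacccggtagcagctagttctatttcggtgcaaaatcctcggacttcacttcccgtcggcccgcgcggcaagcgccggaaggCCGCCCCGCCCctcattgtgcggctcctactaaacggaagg
Actg1 promoter, chr11:120348446-120348745, minus strand: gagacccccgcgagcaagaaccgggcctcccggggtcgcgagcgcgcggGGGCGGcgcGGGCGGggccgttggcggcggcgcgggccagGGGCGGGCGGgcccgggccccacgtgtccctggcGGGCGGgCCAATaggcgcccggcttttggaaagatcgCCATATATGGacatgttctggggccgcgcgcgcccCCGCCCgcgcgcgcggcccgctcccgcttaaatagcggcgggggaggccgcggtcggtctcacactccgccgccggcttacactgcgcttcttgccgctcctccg
Promoter windows were matched by symbol for 8 of the 10 genes, 11 windows in all, since Gsn and Coro1a have several starts; Actb and Twf2 were not matched. A GC box, the element bound by SP1-type factors, was found in 10 of these 11 windows, that of Cap1 being the exception, and in 35.7% of all 32851 windows in the table. The Cap1 window held 1 CCAAT box, beginning 66 bases before the start site, an element found in 37.4% of all windows. A CArG box, the element bound by serum response factor, occurred in 1 of the 11 windows and in 1.63% of all windows. It was the CCATATATGG of Actg1, beginning 90 bases before the start site. None of the 11 windows held a TATA box (TATAAA), found in 13.6% of all windows, or a κB site, the element bound by NF-κB, found in 8.46%. These are matches of letters in a short window and do not show binding. GC boxes may overlap one another, as in Actg1.

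None of Cfl1, Wdr1 and Coro1a, the genes of cofilin, its helper and a coronin, passed the test. Cfl1 (chromosome 19, 5490455 to 5495201, plus strand) had 675, 662 and 757 CPM in KO libraries, against 637, 661 and 639 CPM in WT libraries. The groups were apart by the small gap between 662 and 661 CPM, and KO replicate 3 stood above the rest. Its fitted log2 fold change was 0.11 (SE 0.0526, 95% interval -0.01 to 0.24), with an edgeR adjusted p of 0.52. Exons of Cfl1 overlap Snx32 on the other strand by 468 bases, 16.5% of its exonic bases, and whether counting used strand is not stated. Snx32 had 379 to 435 counts in KO and 381 to 593 counts in WT libraries, against 48442 to 55393 and 43294 to 50237 counts of Cfl1.

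Wdr1 (chromosome 5, 38526813 to 38563221), whose product speeds the disassembly of cofilin-coated filaments, had the smallest spread among WT libraries of the 10 genes (coefficient of variation 2.88% in KO and 0.440% in WT). It had 428, 423 and 405 CPM in KO libraries, against 429, 428 and 425 CPM in WT libraries. The groups overlapped, and the 95% interval of its log2 fold change was -0.11 to 0.05 around -0.03 (edgeR adjusted p = 0.822). Coro1a (chromosome 7, 126699773 to 126704816), the coronin of blood cells, had 33.3, 30.6 and 29.5 CPM in KO libraries, against 34.3, 30.4 and 29.4 CPM in WT libraries. The groups overlapped almost entirely (log2 fold change -0.01, 95% interval -0.20 to 0.18, adjusted p = 0.982). Its exons overlap those of Bola2, on the other strand, by 26 bases.

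For Pfn1, Twf1 and Twf2, whose products bind actin subunits, KO and WT libraries overlapped. Pfn1 (chromosome 11, 70651850 to 70654644), profilin 1, had 644, 651 and 681 CPM in KO libraries, against 667, 708 and 646 CPM in WT libraries. Its groups overlapped, and the 95% interval of the log2 fold change was -0.13 to 0.07 (adjusted p = 0.862). Twf1 (chromosome 15, 94577951 to 94589889) had 120.2, 119 and 116 CPM in KO libraries, against 121, 111 and 117 CPM in WT libraries, again with overlap (95% interval -0.08 to 0.13, adjusted p = 0.908). It encodes twinfilin 1, and its exons overlap the kinase gene Irak4 on the other strand by 395 bases, 12.9% of those of Twf1. Irak4 had 3135 to 3220 counts in KO and 2680 to 3302 counts in WT libraries. Twf1 had 8516 to 8995 counts in KO and 8223 to 9194 counts in WT libraries. How far reads of these genes were mixed was not tested. Twf2 (chromosome 9, 106203108 to 106215389), the second twinfilin gene, was the least abundant member, with 22.9, 17.7 and 18.0 CPM in KO libraries and 18.1, 19.2 and 22.2 CPM in WT libraries. One library of each group was high, KO replicate 1 and WT replicate 3, and the 95% interval of its log2 fold change, -0.32 to 0.27, was the widest of the 10 (adjusted p = 0.976).

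Gsn (chromosome 2, 35256380 to 35307892), gelsolin, had 121, 115 and 128 CPM in KO libraries, against 102, 113.4 and 113.4 CPM in WT libraries. Each KO value lay above each WT value, by a small margin between KO replicate 2 and WT replicates 2 and 3. At 0.15 on the log2 scale (SE 0.0632, 95% interval 0.0018 to 0.30) the difference missed the threshold over all genes (edgeR adjusted p = 0.471, unadjusted p = 0.0479). With Cap1 lower and Cfl1 and Gsn higher, the CPM of the groups did not overlap for 3 of the 10 genes, where 17.6% of all genes tested did not overlap (8.89% lower and 8.68% higher in KO).

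The cytoplasmic actins are the substrate of this machinery. Actb (chromosome 5, 142903115 to 142906754), β-actin, had 1000.4, 1252 and 1078 CPM in KO libraries, against 1059, 1024 and 974.6 CPM in WT libraries. KO replicate 2 was the high one, and the other KO libraries lay near the WT range (log2 fold change 0.12, 95% interval -0.06 to 0.31, adjusted p = 0.646). Actg1 (chromosome 11, 120345690 to 120348542), γ-actin, had 1644, 1546 and 1595 CPM in KO libraries, against 1461, 1771 and 1594 CPM in WT libraries. Here WT replicate 1 was low and WT replicate 2 high, and the KO values lay between them (log2 fold change -0.01, 95% interval -0.16 to 0.14, adjusted p = 0.972).

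The 2 actin genes shared 30 words of 50 bases, 1.03% of the distinct words of Actb, and each also shared words with processed copies elsewhere in the genome, so their counts are uncertain. For Actg1, 37.4% of its words occurred in another annotated gene, most of them in the pseudogene Gm12715 on chromosome 4 (33.2%). Gm12715 was listed at 137, 216 and 168 CPM in KO libraries, against 137, 145 and 140 CPM in WT libraries. Its high library was KO replicate 2, which had the lowest Actg1 and the highest Actb level of the KO group. The sum of Actg1 and Gm12715 was 1781, 1762 and 1763 CPM in KO libraries, against 1598, 1916 and 1734 CPM in WT libraries, and the groups still overlapped. Cap1 was nearly free of such sharing: 2.23% of its words occurred elsewhere, of which all but 1 were in Ppt1, the antisense neighbour that its last exon overlaps.

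**Figure D2:**
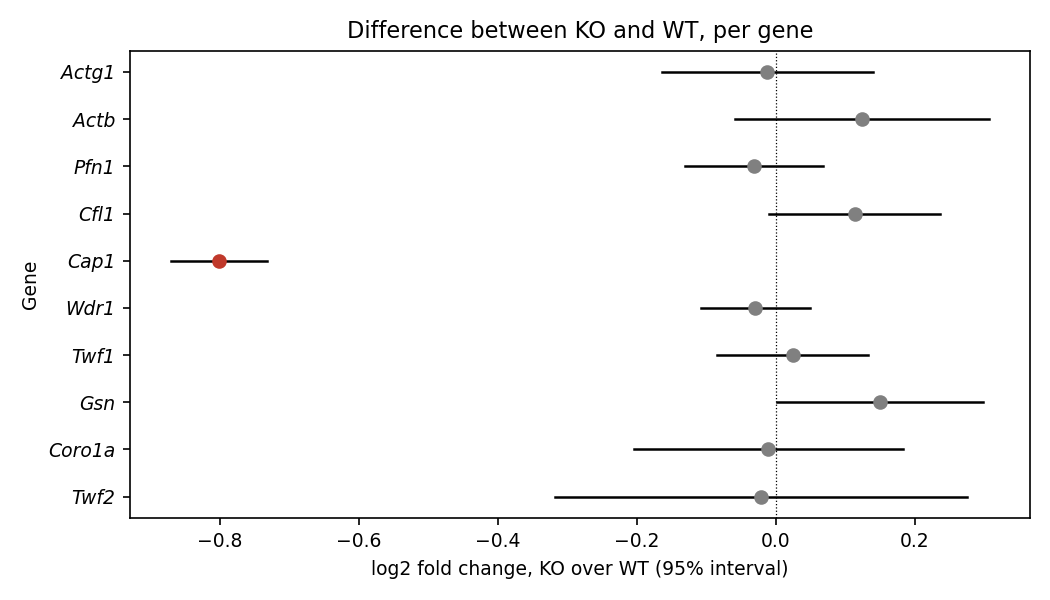
Fitted log2 fold change of KO over WT for the 10 genes, with 95% intervals from edgeR; 0 means no difference. Cap1 lies at -0.80, and the points of the other 9 genes lie between -0.03 and 0.15.

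Per gene length, the order of the 10 genes was the same in KO and WT: Actg1, Actb, Pfn1, Cfl1, Cap1, Wdr1, Twf1, Gsn, Coro1a and Twf2. Their mean FPKM were 541, 374, 247, 221, 114, 42.4, 35.0, 34.7, 10.1 and 7.59 in KO libraries, and 541, 340.3, 250.5, 203.0, 197, 42.9, 34.1, 31.0, 10.1 and 7.63 in WT libraries. Twf1 and Gsn, neighbours in this order, overlapped in KO, with 34.4 to 35.5 FPKM for Twf1 and 32.8 to 36.6 FPKM for Gsn. In WT they did not, with 32.5 to 35.5 FPKM for Twf1 and 28.9 to 32.2 FPKM for Gsn. The place of Cap1 in the order stayed the same, but its distance from cofilin did not. The ratio of Cap1 to Cfl1 FPKM was 0.526, 0.551 and 0.475 in KO libraries, against 0.982, 0.968 and 0.963 in WT libraries. KO libraries thus held fewer Cap1 than Cfl1 transcripts per length, while in WT libraries the levels were nearly equal.

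Ratios of counts within a library do not depend on how libraries are scaled to each other. Cap1 had 0.677, 0.688 and 0.649 counts per Pfn1 count in KO libraries, against 1.15, 1.11 and 1.17 in WT libraries. Against Wdr1 it had 1.02, 1.06 and 1.09 counts per count in KO libraries, and 1.79, 1.84 and 1.78 in WT libraries. Measured against each of the other 9 genes, the KO ratios lay below the WT ratios without overlap, and the KO mean was between 0.517 (against Gsn) and 0.587 (against Twf2) of the WT mean. Cap1 was chosen for its difference, and the other 9 genes differed little. The ratios therefore restate that 1 difference and are no further support for it. The 9 genes other than Cap1 summed to 4689, 4817 and 4808 CPM in KO libraries, against 4527, 4866 and 4560.4 CPM in WT libraries. The groups overlapped in that sum.

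**Figure D3:**
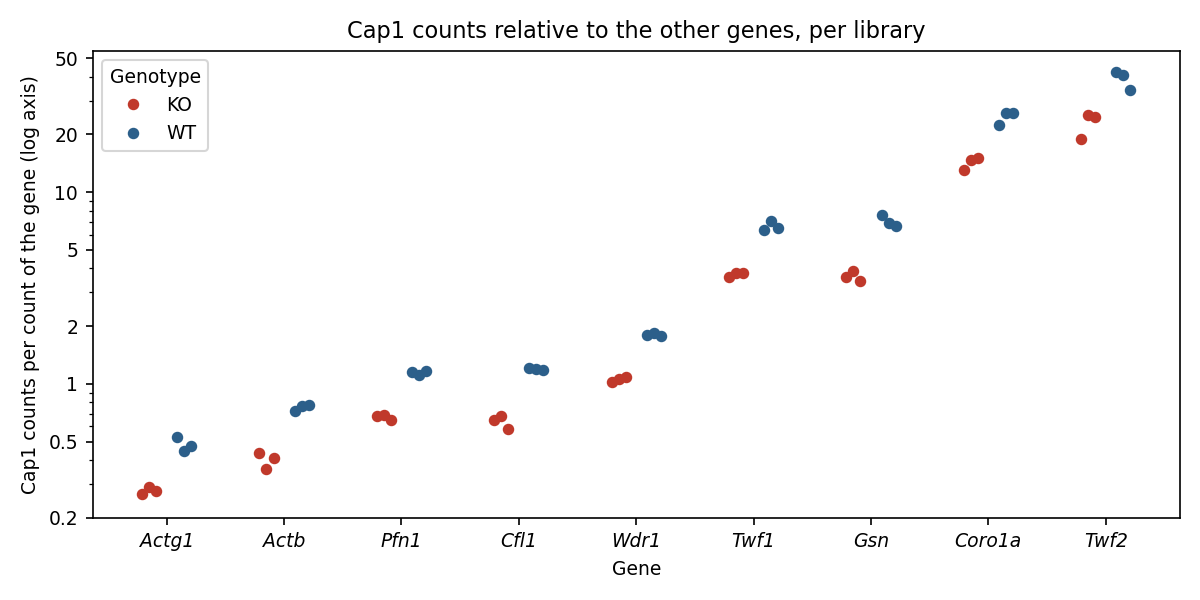
Counts of Cap1 per count of each other gene, in every library, on a log axis, with KO left of WT. For each of the 9 genes all 3 KO points lie below all 3 WT points, with a KO mean at 0.517 to 0.587 of the WT mean. This restates the difference for which Cap1 was chosen.

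No neighbour of Cap1 passed the test. Ppt1 (chromosome 4, 122836242 to 122859078, plus strand), which encodes a lysosomal thioesterase, runs towards Cap1 and shares 129 exonic bases with it in the annotation, 3.69% of those of Cap1. Ppt1 had 90.3, 88.2 and 88.3 CPM in KO libraries, against 101.7, 91.5 and 90.6 CPM in WT libraries. The groups were just apart, between 90.3 and 90.6 CPM, WT replicate 1 was the high one, and the log2 fold change was -0.09 (adjusted p = 0.644). The nearest tested gene on the other side, Mycl, was at 0.289 ± 0.156 CPM in KO and 0.321 ± 0.218 CPM in WT (SD, n = 3 each; adjusted p = 0.965). Within 500000 bases on either side 8 genes were tested, of which Mycl, Hpcal4 and Nt5c1a had means under 1 CPM. Over all genes tested, 0.0677% passed the edgeR test and 10.4% had an unadjusted edgeR p under 0.05. Of the 8, 0 passed and 1 had such an unadjusted p, so nothing is read from these counts. That gene, Pabpc4, which encodes a poly(A)-binding protein, was named after its values were seen, and had 52.2, 51.3 and 56.8 CPM in KO libraries, against 67.3, 61.2 and 57.3 CPM in WT libraries (log2 fold change -0.21, adjusted p = 0.37).

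**Figure D4:**
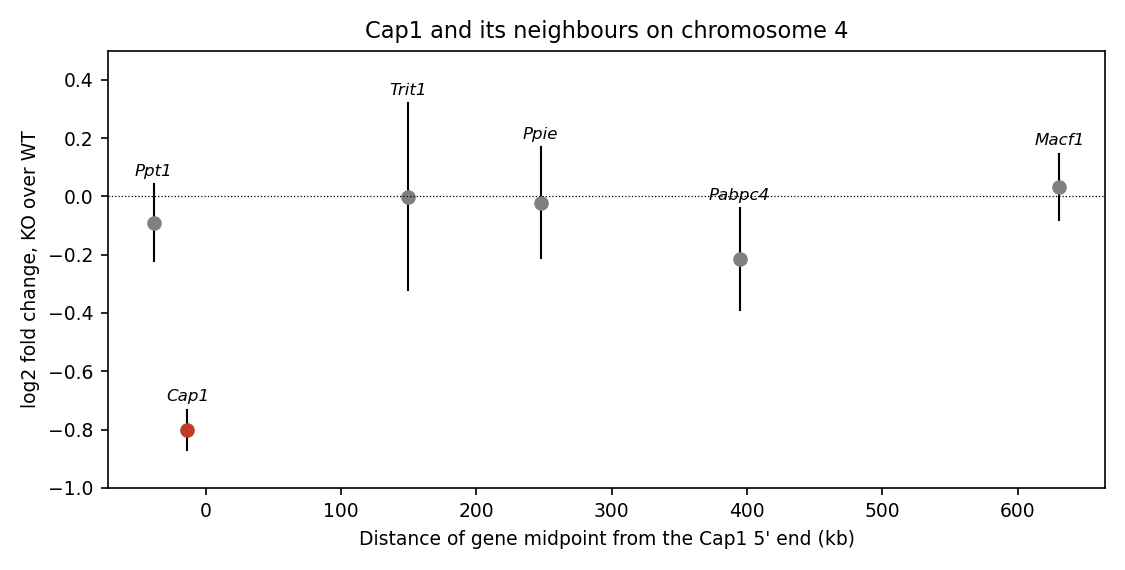
Log2 fold change of KO over WT, with 95% intervals, for the genes around Cap1 with a mean of at least 1 CPM, against the distance of each gene's midpoint from the 5′ end of Cap1 in kilobases. Cap1 lies at -0.80 and its neighbours between -0.21 and 0.03.

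The genes most like Cap1 over the 6 libraries were sought as a description. By the root mean square difference of centred log2 CPM, among 8225 genes with a mean of at least 10 CPM, the closest were Lyz1 (0.0591), Tnf (0.0942), Src (0.101), Tmem178 (0.104) and Lyz2 (0.122). The measure rewards a like difference between the genotypes, so all 5 had lower values in KO by a like factor, and Src and Tmem178 did not pass the test. Lyz1, a lysozyme gene whose counts are uncertain beside those of its close copy Lyz2, had 49.2, 45.1 and 46.3 CPM in KO libraries, against 80.9, 87.8 and 78.2 CPM in WT libraries. Lyz2 itself had 8004, 7982 and 7923 CPM in KO libraries, against 15678, 16980 and 16390 CPM in WT libraries. Tnf, the inflammatory cytokine gene, had 23.0, 21.8 and 22.3 CPM in KO libraries, against 36.8, 33.5 and 36.2 CPM in WT libraries (edgeR adjusted p = 0.027). All 3 KO values of each lay below all 3 WT values. Src, the founding member of a family of tyrosine kinases that act on the actin cytoskeleton, had 20.02, 19.4 and 17.6 CPM in KO libraries, against 34.2, 29.5 and 30.7 CPM in WT libraries (adjusted p = 0.0595). Of the other 9 members, Pfn1 came nearest to Cap1, at 0.387 and place 2406, and Gsn was farthest, at 0.481 and place 7052. These 9 genes were taken up with their small differences known, which by this measure keeps them far from Cap1. Nothing is read from their places.

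The wider actin machinery was described with 12 lists drawn up from textbook knowledge, 121 genes in all, of which 115 were tested and 105 were not among the 10. Of these 105 genes, 0 passed the edgeR test in either direction, where 0.0677% of all genes tested passed. DESeq2 called 4 of the 105, where it called 3.57% of all genes with a DESeq2 adjusted p. Nothing is read from these counts of calls. An unadjusted edgeR p under 0.05 was found for 21 of the 105 (20%). Over all genes tested, 10.4% had an unadjusted p under 0.05, and 14.5% of those with a mean of at least 10 CPM. The median log2 fold change of the 105 genes was 0.01, against -0.0019 for all genes tested, with 51 below 0 and 54 above. The groups did not overlap for 15 of them with lower and 9 with higher values in KO, 22.9% together, against 17.6% of all genes tested and 21.9% of those with a mean of at least 10 CPM.

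Cap2, the other CAP gene, was barely detected, at 0.0940 ± 0.119 CPM in KO and 0.159 ± 0.115 CPM in WT (SD, n = 3 each). Among relatives of cofilin, Dstn (destrin) was at 135 ± 7.68 and Cfl2 at 23.8 ± 5.51 CPM in KO, against 133 ± 4.28 and 21.2 ± 1.24 CPM in WT. None of the 8 kinases and phosphatases that switch cofilin passed by edgeR or by DESeq2, and 0 had an unadjusted edgeR p under 0.05; of these, the phosphatase gene Ssh3 was at 54.5 ± 2.72 CPM in KO and 57.5 ± 6.19 CPM in WT, and the kinase gene Tesk1 at 35.2 ± 3.35 and 34.9 ± 2.76 CPM. Thymosin β4, which holds actin subunits in reserve, is encoded by Tmsb4x, at 1302 ± 151 CPM in KO and 1476 ± 159 CPM in WT (adjusted p = 0.589). Its relative Tmsb10 was at 771 ± 36.1 CPM in KO and 828 ± 86.6 CPM in WT (adjusted p = 0.693). Coro1c, a broadly expressed coronin gene, was at 417 ± 13.3 CPM in KO and 390.0 ± 11.6 CPM in WT, without overlap between the groups (adjusted p = 0.458). Gmfb, a cofilin relative that unties filament branches, was at 270.4 ± 20.6 CPM in KO and 252 ± 6.95 CPM in WT. Acta2, smooth muscle actin, was the only further actin gene tested, at 8.06 ± 0.615 CPM in KO and 9.11 ± 1.83 CPM in WT.

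None of the 21 genes of the Arp2/3 complex, which starts branched filaments, and its activators passed by edgeR or by DESeq2 (median log2 fold change -0.01). An unadjusted edgeR p under 0.05 was found for 5 of them (23.8%). The share was 10.4% over all genes tested and 14.5% over those with a mean of at least 10 CPM. Actr2, a core subunit, was at 728 ± 12.9 CPM in KO and 685 ± 28.2 CPM in WT (adjusted p = 0.467). Hcls1, the cortactin relative of blood cells, was at 624 ± 6.50 CPM in KO and 661 ± 23.2 CPM in WT (adjusted p = 0.452). Of 12 formins and other elongators, 14 crosslinkers and membrane linkers and 10 tropomyosins and myosins, 0 passed by edgeR. DESeq2 called 1 gene in each of these lists, where it called 3.57% of all genes with a DESeq2 adjusted p. An unadjusted edgeR p under 0.05 was found for 3 (25%), 4 (28.6%) and 2 (20%) of their genes. The list medians were 0.02, -0.03 and 0.01. The filament crosslinker gene Flna was at 1815 ± 75.3 CPM in KO and 1757 ± 38.1 CPM in WT (adjusted p = 0.701). Myh9, the heavy chain of non-muscle myosin II, was at 1981 ± 52.6 CPM in KO and 1940.4 ± 43.1 CPM in WT (adjusted p = 0.772). The groups overlapped for both, as they did for the formin gene Diaph1 (347 ± 25.5 CPM in KO and 341 ± 28.0 CPM in WT) and the membrane linker gene Msn (1711 ± 45.2 CPM in KO and 1729 ± 76.8 CPM in WT). The tropomyosin gene Tpm4 was at 486 ± 5.05 CPM in KO and 499 ± 15.3 CPM in WT. Of 14 tested genes of severing and capping proteins, Gsn included, 0 passed by edgeR and DESeq2 called 1. An unadjusted edgeR p under 0.05 was found for 4 of them (28.6%). The groups did not overlap for 4 (28.6%), all higher in KO, among them Gsn and the barely detected Avil (0.403 CPM in KO and 0.141 CPM in WT). Over all genes tested, 17.6% did not overlap, 8.68% with higher values in KO, and 21.9% of those with a mean of at least 10 CPM did not. Nothing is read from this small count. Capg, a gelsolin relative that caps filaments, was at 729 ± 16.5 CPM in KO and 759 ± 16.7 CPM in WT (adjusted p = 0.569), and Capza1, a subunit of capping protein, at 406 ± 12.7 CPM in KO and 377 ± 32.2 CPM in WT.

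Among the 105 genes, DESeq2 alone called 4, of which Add1, Myl12a and Fscn1 were named after their values were seen. Add1, which encodes a filament-capping adducin, had 96.1, 118 and 121 CPM in KO libraries, against 88.8, 92.4 and 85.2 CPM in WT libraries (DESeq2 adjusted p = 0.0136, edgeR adjusted p = 0.244). Myl12a, a regulatory light chain of myosin II, had 139.7, 117 and 121 CPM in KO libraries, against 219, 144 and 218 CPM in WT libraries (0.000549 and 0.216 by the same tests). Fscn1, a bundling protein gene that also marks mature dendritic cells, had 11.1, 12.9 and 11.4 CPM in KO libraries, against 14.4, 16.4 and 19.8 CPM in WT libraries (0.0197 and 0.216). Evl, of the Ena/VASP family, had 135, 141 and 126 CPM in KO libraries, against 165, 152 and 149.97 CPM in WT libraries (0.0483 and 0.252). In all 4 the groups did not overlap, and 3.57% of the 12762 genes with a DESeq2 adjusted p were called by it.

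**Figure D5:**
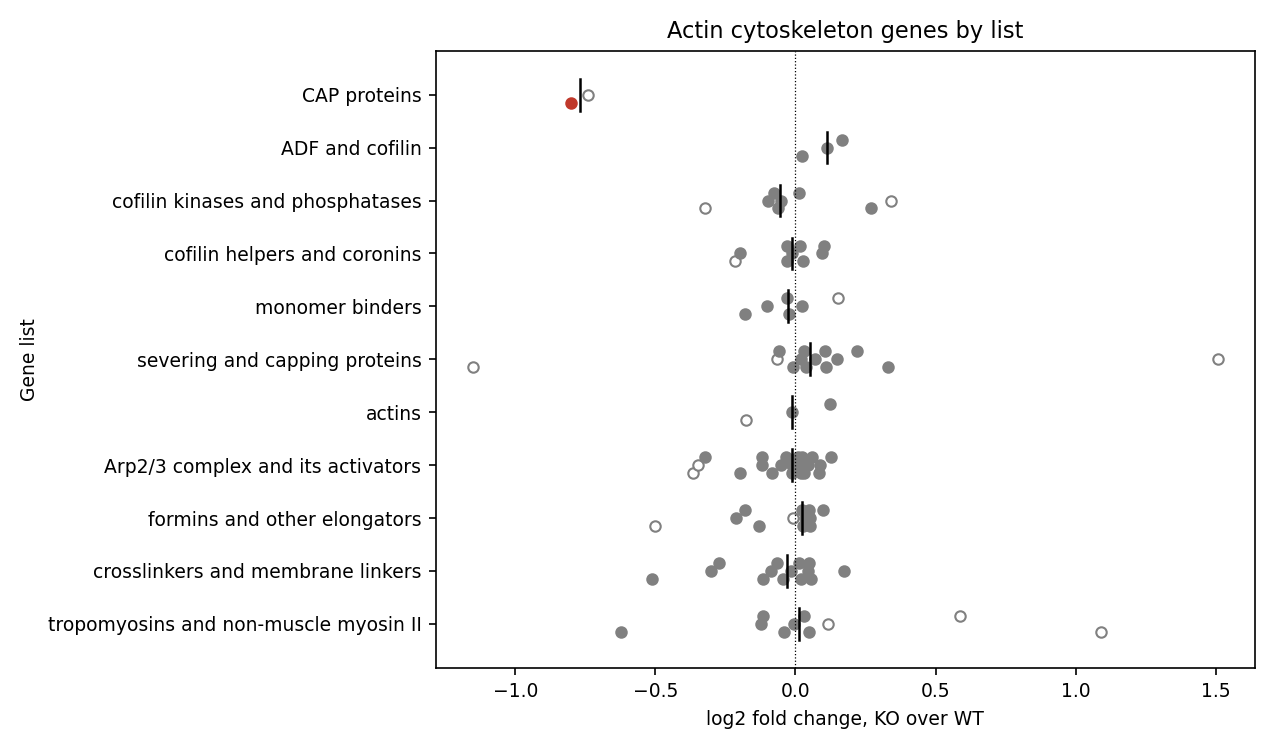
Log2 fold change of KO over WT for the tested genes of 11 lists, 1 point per gene, with the list median as a bar; open points have a mean under 10 CPM, and the red point is Cap1, the gene past the edgeR threshold. Medians of lists other than that of the CAP proteins lie between -0.06 and 0.11.

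CAP1 has also been reported, in human cells, to bind resistin, and its name comes from adenylyl cyclase. Retn, the resistin gene, had too few counts to be tested. The cyclase gene Adcy7 was at 104 ± 13.7 CPM in KO and 88.1 ± 4.15 CPM in WT (SD, n = 3 each; edgeR adjusted p = 0.435), and the groups overlapped.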

How the data were processed

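Poly(A) RNA of 6 samples was sequenced as paired-end libraries, per the labels' protocols. The submitters' processing notes list the aligner HISAT2 2.0. How reads were counted, with which annotation and build, and whether strand was used is not stated; coordinates of 8 of the 10 members equal those of GENCODE M21 (GRCm38). The deposited table holds raw counts per gene and, per the file headers, FPKM, which the authors scaled by depth and transcript length. The table's other 12 per-sample columns match no sample label and were left unused. Members and gene lists were chosen with earlier results of these data known.

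Genes passing filterByExpr (16239) were TMM-scaled and put through the quasi-likelihood test of edgeR 4.0.16 (R 4.3.3), with genotype as the only term, Benjamini-Hochberg adjustment over all of them and a threshold of 0.05. CPM use TMM-scaled library sizes. Library totals of 68053008 to 79090732 counts put a floor of 3 counts at 0.0382 to 0.0441 CPM, for counting error only. Alternatives were RLE size factors, no filter, the DESeq2 1.42.0 Wald test, limma 3.58.1 on log2(FPKM + 1) and log2(FPKM + 0.1) for genes of at least 1 FPKM in at least 3 libraries, the replicate number as a block, and each library left out. No library was a duplicate: within groups, pairwise chi-square over its degrees of freedom was 36.7 to 42.8. Shared sequence was sought as 50-base words common to GENCODE M21 transcripts, on both strands.

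Genes named in the text were the 10 members, Dclk1, Ppt1 and the nearest tested neighbour of Cap1, the 5 genes most like Cap1, and for each list its genes past the threshold or, if none, up to 2 of its most abundant. Results for some listed genes are not reported here.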

Additional observations from a re-analysis of the deposited data

How the results depend on the processing

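Cap1 was lower in KO and past the threshold under all 12 alternatives, with a log2 fold change of -0.81 to -0.78 and an adjusted p of 1.99e-74 to 0.0035. Cap1 was chosen for this difference in these same libraries. The alternatives thus show only how far its value depends on the processing, and are not independent support. Of the other 9 members, 0 passed under any alternative. Cfl1, Gsn and Actb stayed above 0 and Wdr1 below 0 in all 12, while Pfn1, Twf1, Twf2, Coro1a and Actg1, all near 0, took either sign. Without any one library the log2 fold change of Cap1 was -0.81 to -0.79.

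The number of genes past the threshold over all genes, 11, depended on the setting: it was 7 with no filter, 455 with DESeq2 and 3 with the replicate number as a block, and 7 to 35 with one library left out (7 without WT replicate 1, 35 without KO replicate 1 and 24 without WT replicate 2). Among the genes of all actin lists, CAP1 partners included, it was 1 with edgeR, 6 with DESeq2 and 1 to 2 with one library left out. The second gene was Abi1 without KO replicate 1 (log2 fold change -0.56, adjusted p = 0.0212), Lcp1 without KO replicate 2 (-0.48, 0.0043) and Myl12a without WT replicate 2 (-0.80, 0.0388). Same-numbered KO and WT libraries deviated from their group means with correlations of 0.0488, 0.0265 and 0.0173, so the numbers were not taken to pair the samples; with the block Cap1 kept a log2 fold change of -0.80 (adjusted p = 0.0035). The cause of these shifts was not tested. Depth limits the low genes most, as for Cap2.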

Other observations

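A few abundant genes dropped in a single library, while the 10 members did not. Of 1879 genes with a mean of at least 100 CPM, 13 had 1 library below 50% of the lowest of the other 5. There were 2 such genes in KO replicate 1, 4 each in KO replicates 2 and 3, 0 in WT replicate 1, 1 in WT replicate 2 and 2 in WT replicate 3. The clearest among the actin genes was Rac1, the GTPase that drives membrane ruffling, with 262, 82.7 and 268 CPM in KO libraries, against 272, 276 and 266 CPM in WT libraries, a gene chosen after its values were seen. Its KO replicate 2 value stood alone, and the cause was not tested. Abi1, of the WAVE complex that activates Arp2/3, had 195, 130.4 and 123 CPM in KO libraries, against a WT mean of 187 ± 5.06 CPM (SD, n = 3). Lcp1, a leukocyte filament bundler, had 1000.3, 1401 and 1005 CPM in KO libraries, against a WT mean of 1400 ± 6.39 CPM (SD, n = 3). In both, 1 KO library lay near the WT level and the other 2 lay lower, unlike Cap1, whose 3 KO libraries spanned 436 to 448 CPM.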
